A study of Mus musculus with 56 samples.

Results

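Regulatory T cells (Tregs) of mouse visceral adipose tissue (VAT) were compared between the diets abbreviated HFD and NCD after 8 weeks of feeding. The comparison used 3 libraries of HFD VAT Tregs and 3 libraries of NCD VAT Tregs, chosen by their titles from the 56 libraries of the series, and covered every expressed gene. All 6 came from C57BL/6 mice that carried vTreg53, a transgenic T cell receptor (vTreg53 Tg+), with feeding begun at 12 weeks of age, so that HFD and NCD cells alike bear the transgene. Only Tregs bearing the receptor's clonotype were sorted, so the cells stand for a single receptor specificity, and the protocol also calls the mice recipients without naming a donor. Each library held 1000 cells sorted a second time. The other 19 VAT libraries of the mouse experiment entered the fit to estimate the spread, and 3 HFD and 3 NCD libraries of spleen Tregs from week 8 were used for a comparison between tissues. Those 6 have Sp in their titles, which set their group, while their tissue label names visceral adipose tissue; Pparg was at 46.5 to 111 CPM of all counts in the 6 VAT libraries and at 0 to 2.73 CPM in these 6. Nothing in the labels says whether the 3 libraries of a group came from separate mice. The p-values therefore measure the spread between libraries within groups, pooled over all groups of the fit. That spread may be technical.

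Tregs are CD4 T cells, set up by the transcription factor Foxp3, whose task is to hold other immune cells in check. Those that live in visceral fat carry a programme of their own that includes the nuclear receptor Pparg, the IL-33 receptor Il1rl1, Klrg1 and Gata3, and they are known to limit inflammation of fat. Signals through the T cell receptor and through receptors of the TNF superfamily reach NF-kB in these cells and shape their number and state.

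Total counts ran from 4319011 to 6091439 in the 6 VAT libraries, so that 3 counts, taken as the floor of detection, were worth 0.492 to 0.695 CPM (counts scaled to the size of each library). Mitochondrial genes took 0.882 to 1.09% of counts. All 13 general T cell markers were above that floor in all 6 libraries, and Foxp3 lay between 950 and 1131 CPM. In a principal component analysis of 9291 genes, the axis with 40.7% of the variance placed the HFD libraries at -26.6, -14.3 and -12.6 and the NCD libraries at 18.3, 30.9 and 4.3. The next axis, with 19.0%, set NCD replicate 3 (-29.6) apart from the other 5 libraries (1.2 to 11.9). NCD replicate 1 stood apart in some immunoglobulin transcripts: Jchain was at 128 CPM there and at 0.876 CPM or less in the other 5 libraries.

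Of 55011 genes in the table, 14164 passed the filter on low counts and were tested. At a Benjamini-Hochberg adjusted p under 0.05 in edgeR's quasi-likelihood test, 189 genes differed between HFD and NCD (1.33% of those tested). Of these, 118 were higher with HFD (0.833%) and 71 were lower (0.501%), and 60 of the higher and 29 of the lower genes differed at least 2-fold. The median absolute log2 fold change of the called genes was 0.92, while the median log2 fold change of all tested genes was -0.01. A positive log2 fold change was seen in 6901 tested genes and a negative one in 7255. These numbers and the shares called are the base for the counts of list members below. The diet groups did not overlap in any of the 189 genes; across all tested genes the groups did not overlap in 2592 (18.3%), of which 1291 were higher with HFD (9.11%) and 1301 were lower (9.19%). The number of calls depended on single libraries. Leaving out HFD replicate 1, 2 or 3 gave 47, 102 or 66 calls, and leaving out NCD replicate 1, 2 or 3 gave 137, 37 or 248. Of the 189 genes, 25 were called in every fit that left out 1 library. In a bulk sample, a larger share of cells that express a gene and more RNA of it per cell cannot be told apart.

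**Figure D1:**
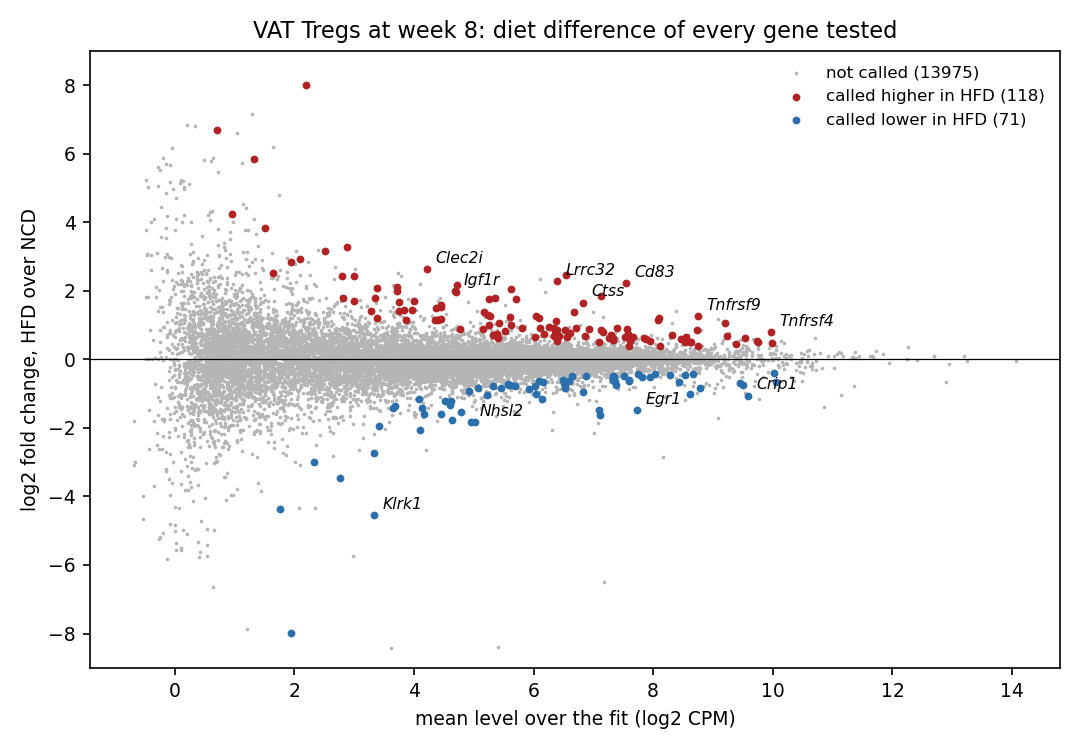
Each point is 1 of the 14164 genes tested, with its mean level in the fit (log2 CPM, x axis) and its log2 fold change of HFD over NCD (y axis); red points are the 118 genes called higher with HFD and blue points the 71 called lower. Most called genes lie above a mean level of 3 log2 CPM, and the 7 beyond a log2 fold change of 4 in size lie toward the low end.

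Receptors of the TNF superfamily were among the clearest changes. Of 28 tested members of this family, its ligands and its TRAF adaptors, 6 rose, 1 fell and 21 were not called. The rises were Tnfrsf9, Tnfrsf4, Cd27, Fas, Ltb and Traf1, and the fall was Tnf. Across all genes tested, 0.833% were called higher and 0.501% lower. The list's median log2 fold change was 0.33. Tnfrsf9 encodes 4-1BB, a costimulatory receptor, and spans chr4:150914562-150946102 on the plus strand of mm10. It was at 562, 563 and 626 CPM in the HFD libraries, against 262, 290 and 183 CPM in the NCD libraries. The lowest HFD library lay well above the highest NCD library, and the log2 fold change was 1.25 ± 0.15 (SE; adjusted p = 1.43e-04), the smallest p of all genes. Tnfrsf4, which encodes OX40, another costimulatory receptor of Tregs, was at 1231, 1240 and 1341 CPM with HFD and at 774, 803 and 624 CPM with NCD. It was higher in 3 of 3 HFD libraries, with a log2 fold change of 0.79 ± 0.14 (adjusted p = 0.00321). Ltb, the lymphotoxin beta chain that helps organise lymphoid tissue, stood at 606, 555 and 635 CPM with HFD and 310, 317 and 376 CPM with NCD. These groups did not overlap either, and the log2 fold change was 0.84 ± 0.12 (adjusted p = 6.64e-04).

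The promoters of Tnfrsf9 and Ltb are shown because these genes led the TNF family and because each window holds letters searched for. Each sequence gives the 250 bases before a RefSeq start site in GRCm38.p6, 5′ to 3′ on the plus strand, at chr4:150927749-150927998 for Tnfrsf9 (a start inside the gene as annotated above) and chr17:35194257-35194506 for Ltb. Capitals mark a match to the AP-1 letters TGACTCA in Tnfrsf9, 15 bases before the start, and to the NF-kB letters, GGGA and TTTCC with any 1 base between them, in Ltb, 87 bases before it; both strands were searched.
Tnfrsf9: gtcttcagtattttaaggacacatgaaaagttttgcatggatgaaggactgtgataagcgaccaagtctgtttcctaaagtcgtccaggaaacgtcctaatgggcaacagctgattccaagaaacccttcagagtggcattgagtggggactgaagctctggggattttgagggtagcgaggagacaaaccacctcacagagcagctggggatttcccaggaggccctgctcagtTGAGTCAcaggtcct
Ltb: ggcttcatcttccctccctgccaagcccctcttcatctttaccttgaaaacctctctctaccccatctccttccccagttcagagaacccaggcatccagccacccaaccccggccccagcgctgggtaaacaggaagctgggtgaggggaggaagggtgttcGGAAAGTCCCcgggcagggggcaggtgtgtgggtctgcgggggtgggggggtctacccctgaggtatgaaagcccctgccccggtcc
The AP-1 letters occurred in 3.78% of the 9735 tested genes with such a window, in 6 of the 88 genes called higher that had one (6.82%) and 1 of the 57 called lower (1.75%). The NF-kB letters occurred in 0.473% of all, in 2 of the 88 (2.27%), Ltb and Gbp5, and in 1 of the 57 genes called lower that had a window (1.75%), Myadm. A match of letters is a description and no measured binding. Only these letters were searched, so a window without them may hold other forms of a site. The Tnfrsf9 window, for example, has the run ggggatttccc, which the NF-kB letters do not match.

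The remaining calls of the TNF family had larger adjusted p than Tnfrsf9, Tnfrsf4 and Ltb. Cd27, a costimulatory receptor, was at 450, 427 and 422 CPM with HFD and 285, 323 and 317 CPM with NCD (log2 fold change 0.49 ± 0.10, adjusted p = 0.00787). Fas, the death receptor, was at 67.4, 44.8 and 72.3 CPM with HFD and 25, 26.3 and 37.4 CPM with NCD (1.06 ± 0.27, adjusted p = 0.0443). In both genes all HFD libraries were above all NCD libraries. Traf1, an adaptor of these receptors, had a log2 fold change of 0.54 ± 0.13 and Tank, a TRAF-binding protein named after its values were seen, had 0.58 ± 0.11. Tnf itself went the other way, at 70.7, 78.7 and 64.4 CPM with HFD and 151, 140 and 124 CPM with NCD, with no overlap (-0.96 ± 0.19, adjusted p = 0.00987). The calls of Cd27 (0.46 without HFD replicate 1) and Tank (0.53 without NCD replicate 2) each hung on 1 library. Tnf (-0.95 to -0.89) lost its call without HFD replicate 1 or 3 or NCD replicate 2, Fas (0.93 to 0.99) without any of these or NCD replicate 1, and Traf1 (0.42 to 0.56) without any of the 6 libraries except HFD replicate 2.

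Coinhibitory receptors gave calls in the same direction. Of 18 tested genes of the coinhibitory and CD28 family, 4 rose, none fell and 14 were not called. The list median was 0.31, and the share called higher over all genes tested was 0.833%. Pdcd1, which encodes PD-1, the receptor that dampens T cell receptor signals (chr1:94038305-94052553, minus strand, mm10), was at 830, 815 and 922 CPM with HFD and at 486, 391 and 366 CPM with NCD. Its lowest HFD value was far above its highest NCD value, with a log2 fold change of 1.05 ± 0.15 (adjusted p = 5.88e-04). Cd96, a receptor of the TIGIT group, was at 69.4, 70.3 and 54.1 CPM with HFD and 25.6, 10.1 and 19.5 CPM with NCD (1.80 ± 0.29, adjusted p = 0.00158). For Btla, an inhibitory receptor of the immunoglobulin family, the HFD libraries had 51.1, 41.8 and 55.3 CPM and the NCD libraries 19.1, 18.0 and 25.2 CPM (1.25 ± 0.21, adjusted p = 0.00223). Neither gene overlapped between diets. Cd274, the gene of the PD-1 ligand PD-L1, had a log2 fold change of 0.84 ± 0.19 (adjusted p = 0.0245), a call lost without HFD replicate 1 or 3 or NCD replicate 2 (0.72 to 0.87). Members that were not called included Ctla4, at 0.21 ± 0.09 (adjusted p = 0.316) with overlapping groups, together with Tigit, Lag3 and Icos (0.33, 0.96 and 0.20).

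Genes of Treg identity and of TGF-beta activation rose in part, while Foxp3 did not pass the test. Foxp3 was at 1103, 1063 and 1131 CPM with HFD and 950, 979 and 1045 CPM with NCD; the HFD libraries were slightly higher, and the log2 fold change of 0.15 ± 0.09 did not pass the test (adjusted p = 0.489). Its exons overlap those of other genes, Flicr among them. Of 21 tested genes of Treg core identity, Ikzf4, Tnfrsf4, Lrrc32, Izumo1r, Swap70 and Satb1 rose, none fell and 15 were not called (median 0.39). Satb1 is also a member of the list of resting and lymphoid T cells described below. The share called higher over all genes tested was 0.833%. Ikzf2 (0.28 ± 0.10, adjusted p = 0.191) and Il2ra (0.12 ± 0.15, adjusted p = 0.821) were among the 15. Lrrc32 encodes GARP, which holds latent TGF-beta on the Treg surface (chr7:98489283-98502181, plus strand, mm10). It was at 90.6, 78.7 and 142 CPM with HFD and at 23, 11.3 and 29.6 CPM with NCD. Every HFD library was above every NCD library by a wide margin, and the log2 fold change was 2.29 ± 0.36 (adjusted p = 0.00297). Itgb8, the integrin chain whose heterodimer activates latent TGF-beta, was at 98.6, 98.9 and 81.4 CPM with HFD and 45.9, 51.2 and 50.4 CPM with NCD, again without overlap (0.92 ± 0.17, adjusted p = 0.00596).

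Izumo1r, also called folate receptor 4, was at 292, 253 and 271 CPM with HFD and 136, 152 and 155 CPM with NCD (0.88 ± 0.17, adjusted p = 0.00787). Ikzf4, which encodes the Foxp3 partner Eos, had a log2 fold change of 0.92 ± 0.19 and Swap70, an actin and signalling adaptor, one of 0.61 ± 0.13. The groups of all these genes were separate. Izumo1r lost its call without HFD replicate 1 (0.82), Ikzf4 without HFD replicate 1 or NCD replicate 2 (0.65 to 0.88), and Swap70 without HFD replicate 1 or 3 or NCD replicate 2 (0.53 to 0.59). Among 24 tested suppressive mediators and TGF-beta genes, the rises were Itgb8, Lrrc32 and Pdcd1, each also counted in another list. None of the 24 fell, and the median was 0.19, beside 0.833% of all genes tested called higher. Il10, a suppressive cytokine, spread widely, at 408, 801 and 466 CPM with HFD and 311, 523 and 446 CPM with NCD. Its groups overlapped, and its log2 fold change of 0.39 ± 0.52 was not called (adjusted p = 0.833).

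**Figure D2:**
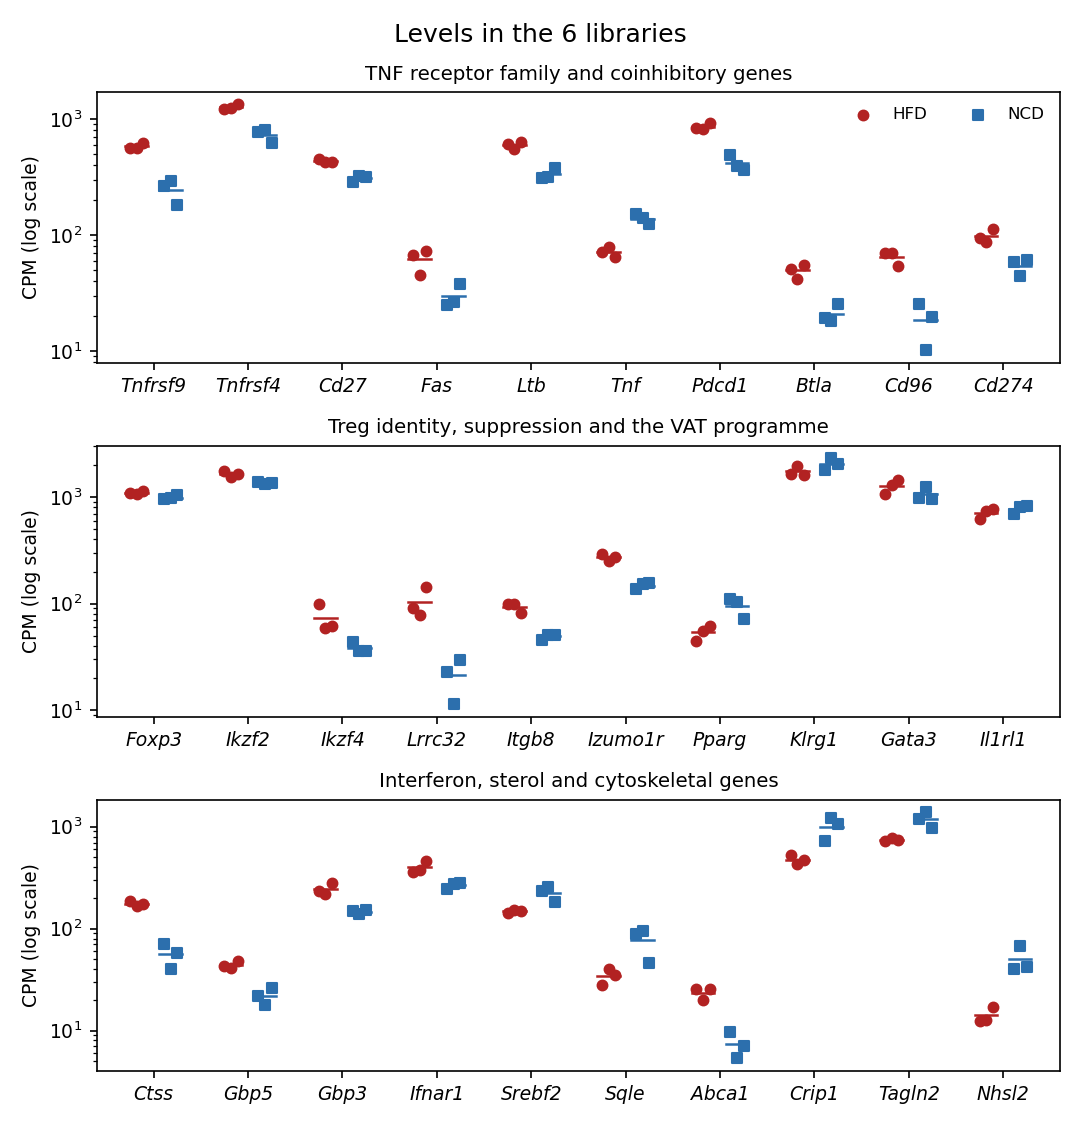
Levels of 30 genes (CPM, log scale) in the 3 HFD libraries (red circles) and 3 NCD libraries (blue squares), with a line at each group's mean. HFD points lie above NCD points for Tnfrsf9, Pdcd1, Lrrc32 and Ctss and below them for Tnf, Srebf2 and Nhsl2, while Il1rl1, Klrg1 and Gata3 overlap.

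The VAT-Treg programme itself gave a single call. Of 28 tested genes, Dgat2 rose, none fell and 27 were not called, with a median of -0.07. Over all genes tested, 0.833% were called higher. Pparg, the nuclear receptor on which these cells depend, was at 44.8, 55.6 and 61.1 CPM with HFD and at 110, 104 and 71.4 CPM with NCD. All HFD values were lower, but the log2 fold change of -0.82 ± 0.31 did not pass the test (adjusted p = 0.235). Il1rl1, the IL-33 receptor, was at 628, 747 and 767 CPM with HFD and 697, 807 and 832 CPM with NCD, with overlap (-0.13 ± 0.23, adjusted p = 0.885). Klrg1 (-0.24 ± 0.15), Gata3 (0.27 ± 0.24), the growth factor gene Areg (0.54 ± 0.29) and the chemokine receptor gene Ccr2 (-0.41 ± 0.16) were not called, at adjusted p of 0.526, 0.704, 0.465 and 0.251. Dgat2, whose enzyme makes triglycerides, was at 44.2, 25 and 44.3 CPM with HFD and 18.0, 19.2 and 8.32 CPM with NCD. Its groups did not overlap (1.30 ± 0.29, adjusted p = 0.0192), but the call was lost without HFD replicate 1 or 3 or NCD replicate 3 (1.02 to 1.18). Limma voom did not call Dgat2 (adjusted p = 0.0530), nor did edgeR with only the groups compared (0.0726).

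Genes of NF-kB, the transcription factor family downstream of many TNF receptors, included 4 rises and no fall among 29 tested (median 0.36). Over all genes tested, 0.833% were called higher. In 17 of the 29 genes all HFD libraries were above all NCD libraries, beside 9.11% of all genes tested. Relb, the subunit of the non-canonical pathway, was at 134, 125 and 146 CPM with HFD and at 75.5, 62.3 and 75.8 CPM with NCD. The groups lay far apart relative to their spread (0.92 ± 0.14, adjusted p = 6.64e-04). Cd83, a surface protein of activated lymphocytes, was at 262, 204 and 278 CPM with HFD and 74.2, 27.9 and 55.8 CPM with NCD (2.23 ± 0.43, adjusted p = 0.0170). Its call was lost without HFD replicate 1 or 3 or NCD replicate 2 (1.93 to 2.19); Ltb kept its call without any library, and Traf1 did not (0.42 to 0.56 where lost, without any library other than HFD replicate 2). Rel had a log2 fold change of 1.18 with no overlap and was not called (adjusted p = 0.126), and the inhibitor gene Nfkbia was at 0.36 (adjusted p = 0.243).

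Interferon-linked genes showed a partial pattern. Interferons act through receptors, JAK kinases and STAT factors on genes with response elements in their promoters, among them the guanylate-binding (Gbp) and IRG GTPases that defend cells from within. Of 17 tested Gbp and IRG genes, Gbp3 and Gbp5 rose and none fell, beside 0.833% of all genes tested called higher. Of the 17, 16 had a positive log2 fold change and the median was 0.54. In 8 of the 17 all HFD libraries were above all NCD libraries, beside 9.11% of all genes tested. Gbp5 was at 43.3, 41.5 and 47.9 CPM with HFD and 21.9, 17.8 and 26.3 CPM with NCD (1.01 ± 0.21, adjusted p = 0.0150). Gbp3 was at 233, 219 and 279 CPM with HFD and 150, 138 and 154 CPM with NCD (0.73 ± 0.17, adjusted p = 0.0339). Neither overlapped. Near-identical copies in this family make the split of reads between its members uncertain. Gbp5 lost its call without HFD replicate 1 or 3 or NCD replicate 2 (0.88 to 1.03), and Gbp3 without any library except HFD replicate 2 (0.62 to 0.76).

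Among 43 tested genes of the type I interferon response, 34 had a positive log2 fold change. Their median was 0.14 and became 0.35 without NCD replicate 3. All HFD libraries were above all NCD libraries in 6 of the 43 and below them in 1, beside 9.11% and 9.19% of all genes tested. Of the 43, 2 rose and none fell, beside 0.833% of all genes tested called higher. Ifih1, 1 of the 2, which encodes the RNA sensor MDA5, was at 33.0, 41.8 and 36.7 CPM with HFD and 8.26, 16.0 and 25.8 CPM with NCD (1.17 ± 0.30, adjusted p = 0.0479). The groups were separate, yet of the 6 fits that leave out a library only that without NCD replicate 3 kept the call (0.83 to 1.25 in the others). The classical effector Isg15 was at 2.68, 3.85 and 2.32 CPM with HFD and 2.11, 2.77 and 1.53 CPM with NCD, and Irf7 at 24.3, 22.6 and 42.7 CPM with HFD and 23.2, 21.1 and 44.9 CPM with NCD. Both overlapped, at adjusted p of 0.793 and 0.993. The 3 genes of receptor and sensor signalling outside these lists were chosen after their values were seen: Ifnar1, a chain of the type I interferon receptor (0.58 ± 0.12), Jak2, the kinase of the interferon gamma receptor (0.87 ± 0.19), and Sting1, the adaptor of DNA sensing (0.65 ± 0.13). Their calls were lost without HFD replicate 3 or NCD replicate 1 or 2 for Ifnar1 (0.46 to 0.60), without HFD replicate 1 or 3 or NCD replicate 1 for Jak2 (0.75 to 0.89), and without HFD replicate 1 or 3 for Sting1 (0.59 to 0.63).

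Ctss encodes cathepsin S, a lysosomal protease that trims the invariant chain of MHC class II, and spans chr3:95526786-95556403 on the plus strand of mm10. It was at 186, 168 and 175 CPM with HFD and at 70.5, 40.3 and 57.6 CPM with NCD. Its groups were more than 2-fold apart at their nearest values, and the log2 fold change was 1.65 ± 0.21 (adjusted p = 2.95e-04). Of the 30 cathepsin and lysosome genes tested it was the single call. Beside 0.833% of all genes tested called higher, 2 of 22 tested genes in the antigen presentation pathway of MHC class I rose and none fell. They were Psmb10, a catalytic subunit of the immunoproteasome (0.83 ± 0.19), and Psme1, a proteasome activator subunit (0.52 ± 0.11; its exons overlap those of Emc9). Both lost the call without NCD replicate 2 or HFD replicate 1, Psmb10 also without HFD replicate 2 (0.71 to 0.82) and Psme1 also without HFD replicate 3 (0.51 to 0.52). Of the 22 class I pathway genes, 18 had a positive log2 fold change, with a median of 0.15. In 8 of the 22 all HFD libraries were above all NCD libraries, beside 9.11% of all genes tested. H2-K1 and H2-D1, the classical class I genes, were at -0.05 and -0.14.

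The promoters of Ctss, Gbp3 and Gbp5 are shown because all these genes rose and their windows hold the letters of the interferon-stimulated response element, GAAA and GAAA with any 2 bases between them, in capitals. They are again 250 bases before the RefSeq start on the plus strand of GRCm38.p6, at chr3:95526536-95526785 for Ctss, chr3:142559794-142560043 for Gbp3 and chr3:142496684-142496933 for Gbp5. The match begins 21 bases before the start in Ctss and 165 in Gbp5; Gbp3 has 2 overlapping matches, from 45 and 39 bases before its start. In Gbp5 the other run of capitals, 77 bases before the start, matches the NF-kB letters.
Ctss: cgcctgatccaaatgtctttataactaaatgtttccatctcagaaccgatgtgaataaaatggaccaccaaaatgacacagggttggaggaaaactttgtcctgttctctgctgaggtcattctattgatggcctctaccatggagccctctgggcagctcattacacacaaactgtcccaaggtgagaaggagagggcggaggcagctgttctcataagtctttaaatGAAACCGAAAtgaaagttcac
Gbp3: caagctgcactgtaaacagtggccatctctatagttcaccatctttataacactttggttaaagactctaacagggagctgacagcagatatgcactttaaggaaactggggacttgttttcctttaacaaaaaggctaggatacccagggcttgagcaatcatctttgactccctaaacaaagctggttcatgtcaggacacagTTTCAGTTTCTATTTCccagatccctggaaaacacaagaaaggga
Gbp5: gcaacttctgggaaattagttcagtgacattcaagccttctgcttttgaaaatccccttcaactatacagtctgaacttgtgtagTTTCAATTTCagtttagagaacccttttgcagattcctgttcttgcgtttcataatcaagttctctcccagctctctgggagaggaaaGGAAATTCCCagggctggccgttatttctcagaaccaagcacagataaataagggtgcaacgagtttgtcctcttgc
Such letters occurred on either strand in 314 of the 9735 tested genes with a window (3.23%). They occurred in 11 of the 88 genes called higher (12.5%), which include Dpp4, Serpinb9 and Cybb, and in 1 of the 57 genes called lower (1.75%), Cmpk1. For comparison, the STAT5 letters TTCNNNGAA, where N is any base, were in 7.09% of all windows, 13.6% of those of genes called higher and 3.51% of those of genes called lower, and the NF-Y letters CCAAT in 40.7%, 35.2% and 42.1%. These shares were not tested.

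Lipid genes diverged. Sterol synthesis is driven by the transcription factor SREBP2, the product of Srebf2, and passes through squalene epoxidase, the product of Sqle. Of 27 tested sterol genes, Srebf2 and Sqle fell and none rose, beside 0.501% of all genes tested called lower. The log2 fold change was negative in 24 of the 27, and the median was -0.50. Srebf2 (chr15:82147181-82205379, plus strand, mm10) was at 142, 154 and 149 CPM with HFD and at 235, 255 and 182 CPM with NCD (-0.59 ± 0.12, adjusted p = 0.00879). Sqle was at 27.7, 40.4 and 35.0 CPM with HFD and 89.4, 94.9 and 46.4 CPM with NCD (-1.16 ± 0.26, adjusted p = 0.0221). NCD replicate 3 was the lowest NCD library in both, still above every HFD library. Srebf2 lost its call without HFD replicate 1 or NCD replicate 2 (-0.56 to -0.49) and Sqle without any library except HFD replicate 2 and NCD replicate 3 (-1.17 to -0.99).

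The other 25 sterol genes were not called. For Cyp51, a demethylase of the pathway, the HFD libraries had 80.3, 65.9 and 70.2 CPM and the NCD libraries 161, 171 and 70.7 CPM. NCD replicate 3 lay among the HFD libraries, and the log2 fold change was -0.90 ± 0.27 (adjusted p = 0.106). The sterol regulatory element letters TCACNCCAC were in 1.21% of all windows, in none of the 88 windows of genes called higher and in 1 of the 57 of genes called lower (1.75%), Atp2b1.

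On the side of sterol removal, Abca1, the transporter that hands cholesterol to lipoproteins, was at 25.4, 20 and 25.5 CPM with HFD and at 9.72, 5.34 and 7.01 CPM with NCD. It was the single call among 14 tested genes of efflux and lysosomal cholesterol, with no overlap (1.67 ± 0.40, adjusted p = 0.0314), and held its call only without NCD replicate 1 (1.49 to 1.78 without any of the others). Gramd1b, whose product carries cholesterol from the plasma membrane to the endoplasmic reticulum and which was chosen after its values were seen, had a log2 fold change of 0.73 ± 0.14 (0.62 and not called without NCD replicate 2). Among 22 genes of fatty acid uptake and storage Dgat2 was the only call (median -0.22, and -0.33 without HFD replicate 1), and none was called of 24 genes of fatty acid oxidation (median -0.10), of 17 of fatty acid synthesis (median 0.00, and -0.14 without HFD replicate 2 or -0.17 without NCD replicate 3), of 40 nuclear genes of oxidative phosphorylation (median 0.01) or of 28 of glycolysis and hypoxia (median -0.01).

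**Figure D3:**
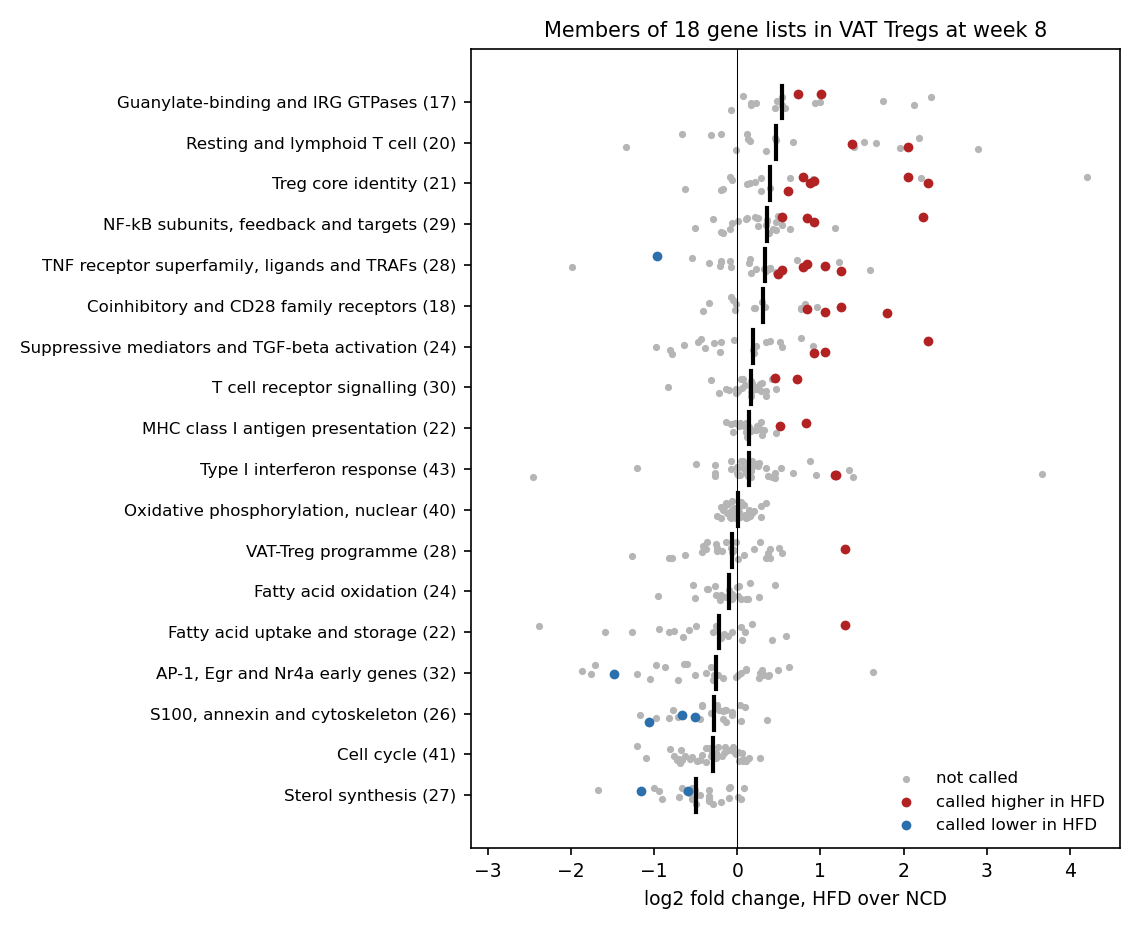
Log2 fold changes of HFD over NCD (x axis) for the members of 18 gene lists, with the number tested in brackets; red points rose, blue points fell, grey points were not called and black bars are list medians. The medians run from 0.54 for the Gbp and IRG genes to -0.50 for sterol synthesis, and 1 member lies outside the axis.

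The 4 falls with the smallest p among the named genes were Nhsl2, Plec, Cdc42ep3 and Septin11. Nhsl2 (chrX:101849385-102092055, plus strand, mm10) was at 12.3, 12.7 and 17.2 CPM with HFD and at 40.5, 67.0 and 42.5 CPM with NCD. Its HFD libraries were all far below its NCD libraries (-1.83 ± 0.25, adjusted p = 2.95e-04). Plec, the gene of the linker protein plectin whose exons overlap those of Parp10, was at 506, 623 and 556 CPM with HFD and 851, 1045 and 960 CPM with NCD (-0.76 ± 0.13, adjusted p = 0.00200). Septin11, a filament-forming GTPase, was at 258, 325 and 272 CPM with HFD and 490, 615 and 438 CPM with NCD (-0.85 ± 0.15, adjusted p = 0.00266). Cdc42ep3, an effector of the small GTPase Cdc42, was at 71.4, 73.6 and 71.5 CPM with HFD and 126, 116 and 132 CPM with NCD (-0.79 ± 0.13, adjusted p = 0.00232). In each of these genes the groups were apart, and the call survived the loss of any 1 library.

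Of 26 tested S100, annexin and cytoskeletal genes, 3 fell and none rose, beside 0.501% of all genes tested called lower. Of the 26, 22 were negative, with a median of -0.27. In 11 of the 26 all HFD libraries were below all NCD libraries, beside 9.19% of all genes. Crip1, a small LIM domain protein, was at 524, 433 and 469 CPM with HFD and 718, 1209 and 1053 CPM with NCD (-1.06 ± 0.24, adjusted p = 0.0326). Tagln2, an actin-binding protein, was at 729, 769 and 740 CPM with HFD and 1203, 1385 and 963 CPM with NCD (-0.67 ± 0.17, adjusted p = 0.0485). Anxa5, which binds phosphatidylserine, was at 198, 195 and 188 CPM with HFD and 261, 322 and 246 CPM with NCD (-0.51 ± 0.11, adjusted p = 0.0192). None of these groups overlapped. Crip1 kept its call only without NCD replicate 1 (-1.14 to -0.90 elsewhere), Tagln2 only without NCD replicate 3 (-0.69 to -0.54), and Anxa5 only without NCD replicate 1 or 3 (-0.53 to -0.38). Coro1c, an actin regulator (-0.59 ± 0.12), and the scaffold gene Iqgap1 (-0.41 ± 0.10, chosen after its values were seen) also fell; Coro1c lost its call without HFD replicate 1 or 2 or NCD replicate 2 (-0.58 to -0.52) and Iqgap1 without any library except NCD replicate 1 (-0.45 to -0.36).

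Further falls were Adgre5, the adhesion receptor CD97 (-0.67 ± 0.13), Atp2b1, a plasma membrane calcium pump (-0.68 ± 0.13), the transcription factor gene Rfx1 (-0.83 ± 0.17), the membrane protein gene Plp2 (-0.79 ± 0.15), Card19 (-1.03 ± 0.20), the long noncoding RNA Ftx (-0.83 ± 0.17), Faf1 (-1.22 ± 0.26) and the collagen and toxin receptor gene Antxr2 (-0.67 ± 0.14). All lost the call when 1 of 1 to 3 particular libraries was left out. NCD replicate 2 was such a library for all except Ftx: for Plp2 (-0.73) it was the only one, and for Adgre5 (-0.62 to -0.59), Atp2b1 (-0.63 to -0.60) and Rfx1 (-0.83 to -0.71) HFD replicate 1 was the other. For Card19 (-0.96 to -0.80) the other was HFD replicate 3. Faf1 (-1.17 to -0.90) also needed HFD replicates 1 and 2, Antxr2 (-0.69 to -0.56) HFD replicates 1 and 3, and Ftx (-0.85 to -0.78) HFD replicates 1 and 3 but not NCD replicate 2.

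Several genes without a shared pathway rose strongly. Igf1r, the receptor of insulin-like growth factor, was at 35.0, 31.0 and 44.3 CPM with HFD and at 11, 5.53 and 11.4 CPM with NCD (1.98 ± 0.29, adjusted p = 6.64e-04). It was the single call among 15 genes of insulin, IGF and adipokine signalling. Trf, the iron carrier transferrin, was at 60.4, 57.3 and 72.7 CPM with HFD and 24.8, 15.8 and 15.3 CPM with NCD (1.76 ± 0.28, adjusted p = 0.00200), the single call among 13 iron genes. Adk, the adenosine kinase, was at 90.6, 86.6 and 103 CPM with HFD and 48.8, 33.4 and 35.3 CPM with NCD (1.25 ± 0.20, adjusted p = 0.00121). In all these genes the lowest HFD value exceeded the highest NCD value.

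Clec2i, a C-type lectin-like protein, was at 53.5, 29.7 and 37.9 CPM with HFD and 6.48, 3.95 and 8.98 CPM with NCD (2.64 ± 0.45, adjusted p = 0.00297). The sialyltransferase gene St6gal1 (1.76 ± 0.30), the chromatin regulator gene Arid5b (0.67 ± 0.10) and Cenpa, the centromeric histone (0.92 ± 0.14), rose as well. The rises of Igf1r, Trf, Adk, Clec2i, St6gal1, Arid5b and Cenpa kept their calls whichever of the 6 libraries was left out. Of genes chosen after their values were seen, Tbc1d4, which controls insulin-driven traffic of glucose transporters, was at 41.5, 52.8 and 31.7 CPM with HFD and 8.43, 5.53 and 14.2 CPM with NCD (2.17 ± 0.39; 1.90 and not called without NCD replicate 2). Serpinb9, an inhibitor of granzyme B, was at 1.23 ± 0.23 (1.09 and not called without NCD replicate 2), and the surface peptidase gene Dpp4 at 1.96 ± 0.40 (1.65 to 1.85 and not called without HFD replicate 1 or NCD replicate 1 or 2).

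Genes of resting and lymphoid T cells gave 2 calls. Of 20 tested, 2 rose and none fell, with a median of 0.46, beside 0.833% of all genes tested called higher. Satb1, 1 of the 2, was also counted above under Treg core identity. In 10 of the 20 all HFD libraries were above all NCD libraries, beside 9.11% of all genes tested. Satb1, an organiser of chromatin, was at 46.2, 46.6 and 49.9 CPM with HFD and at 9.07, 6.72 and 19.0 CPM with NCD (2.05 ± 0.44, adjusted p = 0.0256). Its groups were separate, but it lost its call when any 1 library except NCD replicate 3 was left out (1.78 to 2.07). Ccr7 was at 86.8, 72.9 and 87.8 CPM with HFD and 41.6, 15.4 and 4.82 CPM with NCD, without overlap, and was not called (1.96 ± 0.60, adjusted p = 0.136); Tcf7, Bach2 and Cxcr5 were at 1.41, 1.67 and 2.18, not called and without overlap.

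T cell receptor signalling and early response genes gave calls, and cell cycle genes gave none. A positive log2 fold change was seen in 23 of 30 signalling genes. In 10 of the 30 all HFD libraries were above all NCD libraries, beside 9.11% of all genes tested. Of the 30, 2 rose (6.67%) and none fell, beside 0.833% of all genes tested called higher. The adaptor gene Sla (0.45 ± 0.11) was 1 of the 2 and kept its call only without NCD replicate 3 (0.41 to 0.49 elsewhere). Of 32 AP-1, Egr and Nr4a early genes, Egr1 fell and none rose, beside 0.501% of all genes tested called lower. All HFD libraries were below all NCD libraries in 11 of the 32 and above them in 6, beside 9.19% and 9.11% of all genes tested. Egr1 was at 106, 178 and 142 CPM with HFD and at 380, 392 and 420 CPM with NCD, far apart (-1.48 ± 0.32, adjusted p = 0.0298), and kept its call only without HFD replicate 2 (-1.51 to -1.31 elsewhere). Fosb was at -1.20 ± 0.31 and not called (adjusted p = 0.0705), and so was Fos (-1.05, adjusted p = 0.251), while Nr4a1 was at 0.10. Bhlhe40, a clock and activation factor, was at 228, 180 and 235 CPM with HFD and 77.4, 45.3 and 54.7 CPM with NCD (1.85 ± 0.44, adjusted p = 0.0461), a call lost when any 1 library was left out (1.69 to 2.10). None of 41 cell cycle genes was called, although 33 were negative and the median was -0.29. Mki67, a marker of cycling cells, was at 69.1, 94.1 and 87.0 CPM with HFD and 130, 90.9 and 77.7 CPM with NCD, with overlap (adjusted p = 0.836).

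Lists without any call included 17 chemokine receptors, whose median of 0.01 became 0.37 without NCD replicate 3, 21 genes of the IL-2 receptor and STAT5 pathway, 16 heat shock chaperones, 16 genes of the BCL2 family, 16 of helper T lineages, 24 of endoplasmic reticulum stress, 20 of amino acid transport and mTORC1, 15 induced by glucocorticoids, 16 of the IL-33, IL-1 and Toll-like receptor pathway and 8 mitochondrially encoded genes of oxidative phosphorylation. Among 23 p53 targets Fas rose and the kinase gene Plk3 fell (-1.01 ± 0.24; -1.13 to -0.67 and not called without HFD replicate 1 or 3 or NCD replicate 2). Among 19 integrin and adhesion genes 2 rose, Itgb8 among them, and Itga1, a collagen receptor chain, fell. Over all genes tested, 0.833% were called higher and 0.501% lower. Itga1 was at 9.14, 9.91 and 9.09 CPM with HFD and 20.6, 27.1 and 38.5 CPM with NCD, without overlap (-1.61 ± 0.36, adjusted p = 0.0213), a call kept only without NCD replicate 1 (-1.65 to -1.34 elsewhere). Of the 189 called genes, 144 belonged to none of the lists.

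Markers of other cell types moved with diet in 2 directions. Markers of NK and CD8 T cells summed to 105, 78.0 and 111 CPM in the HFD libraries and 190, 297 and 200 CPM in the NCD libraries, without overlap. Ncr1, the NK cell receptor NKp46, had no count in any HFD library and 10.7, 7.71 and 0.876 CPM in the NCD libraries, at least 34.7-fold lower with HFD taking 3 counts over the group as the floor (adjusted p = 0.0160). Klrk1, another NK receptor gene, was at 0.223, 0.367 and 0.773 CPM with HFD and 21.9, 4.35 and 7.44 CPM with NCD (adjusted p = 0.0465). Ncam1 is not in this marker list, is not read here as an NK gene, and was chosen after its values were seen. Its levels were 0, 1.28 and 0.580 CPM with HFD and 9.56, 7.31 and 5.47 CPM with NCD (adjusted p = 0.0162). Nkg7, which effector T cells also use, made up much of the sum, at 22.8, 24.6 and 40.8 CPM with HFD and 70.8, 199 and 102 CPM with NCD, and Cd8a was at 0 in all 6. The calls were lost without NCD replicate 2 or any HFD replicate for Ncr1 (log2 fold changes of -7.98 to -7.83, set by counts near 0), without these or NCD replicate 1 for Klrk1 (-5.12 to -3.60), and without HFD replicate 1 or 3 or NCD replicate 2 for Ncam1 (-3.49 to -2.96). Limma voom called none of Ncr1, Klrk1 and Ncam1 (adjusted p of 0.0733, 0.0946 and 0.0586).

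MHC class II genes with Cd74 went the other way, summing to 278, 192 and 280 CPM with HFD and 157, 91.5 and 108 CPM with NCD. All 10 had a positive log2 fold change, in 5 all HFD libraries were above all NCD libraries (9.11% of all genes tested were), and none was called; Cd74 was at 85.0, 65.7 and 96.7 CPM with HFD and 44.7, 28.3 and 31.7 CPM with NCD. B cell markers summed to 1598, 1200 and 1503 CPM with HFD and 1692, 448 and 926 CPM with NCD, most of it from Ighm (1542, 1172 and 1470 CPM with HFD, 1404, 435 and 906 CPM with NCD), with Ebf1 at 0 in all 6. Igkc was at 20.3, 7.89 and 10.2 CPM with HFD and 262, 4.74 and 5.25 CPM with NCD, high in NCD replicate 1 alone. Dendritic cell markers were higher with HFD in sum (98.6, 92.7 and 103 CPM, against 62.5, 32.0 and 28.7 CPM with NCD), mostly through Ccr7, with Cd209a, Siglech and Batf3 at 0. Macrophage markers were at 11.9 CPM or less in total, and adipocyte and stromal sums overlapped between diets. Pecam1, listed as an endothelial marker and also a gene of T cells, rose (111, 106 and 118 CPM with HFD, 65.9, 33.6 and 53 CPM with NCD; 1.13 ± 0.23, adjusted p = 0.0116), a call lost without HFD replicate 3 or NCD replicate 2 (0.90 to 1.09). The part of these other transcripts in the rises of Ctss and the resting T cell genes and in the falls of Crip1, Tagln2 and Anxa5 was not tested.

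**Figure D4:**
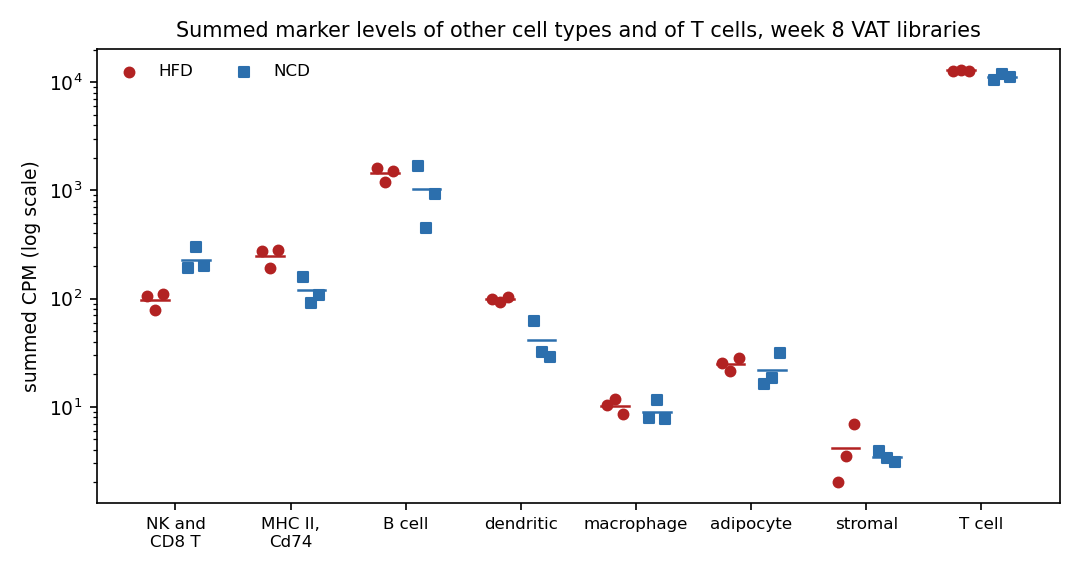
Summed CPM (log scale) of marker lists in the 3 HFD libraries (red circles) and 3 NCD libraries (blue squares), with lines at the means. NK and CD8 T cell markers lie at 78.0 to 111 CPM with HFD and 190 to 297 CPM with NCD, MHC class II genes at 192 to 280 CPM with HFD and 91.5 to 157 CPM with NCD, and T cell markers at 10426 to 12998 CPM in all 6.

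The same diet contrast in spleen Tregs of week 8, from the joint fit of both tissues, gave no call among 15601 genes by edgeR. In that fit, 848 genes had an unadjusted p under 0.05 for the spleen contrast. VAT had 1859 such genes (13.1% of those tested) in its separate fit of 14164 genes. These numbers rest on different sets of genes and libraries. A direct test of the difference, the diet effect in VAT minus that in spleen, called 71 genes (0.455% of 15601). Of these, 48 had the higher effect in VAT (0.308%) and 23 the lower (0.147%). VAT alone also called 51 of the 71, all with the same sign. The difference contains the VAT effect, so this shared sign is no independent support. The 71 calls became 8 without VAT NCD replicate 2, 14 without spleen HFD replicate 1 and 21 without spleen NCD replicate 1. The 7 named genes that kept this call without any 1 of the 12 libraries were Ctss, Ltb, Igf1r, Cd96, Lrrc32, St6gal1 and Clec2i.

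For Ctss the spleen libraries were at 556, 510 and 502 CPM with HFD and 442, 473 and 519 CPM with NCD, so its diet effect in VAT exceeded that in spleen by 1.52 ± 0.23 (log2; adjusted p = 6.67e-04). Lrrc32 was at 187, 259 and 236 CPM in spleen with HFD and 272, 177 and 252 CPM in spleen with NCD, a difference between the effects of 2.34 ± 0.41 (adjusted p = 0.00481). In all 7 genes the spleen groups of the diets overlapped, and every spleen library of either diet was above every VAT library of either diet. For Nhsl2 the difference was -2.62 ± 0.50 (adjusted p = 0.00822), lost without VAT NCD replicate 2 or spleen HFD replicate 1 (-2.35 to -2.15). For Tnfrsf9 (0.83 ± 0.35), Pdcd1 (0.99 ± 0.41) and Srebf2 (-0.33 ± 0.16) the difference between tissues was not called, at adjusted p of 0.386, 0.372 and 0.453. Trf stood at 24.3, 29.6 and 16.1 CPM in spleen with HFD and 8.13, 2.08 and 4.04 CPM in spleen with NCD; its spleen effect (2.27 ± 0.59) was not called, and the difference was -0.50 ± 0.78.

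**Figure D5:**
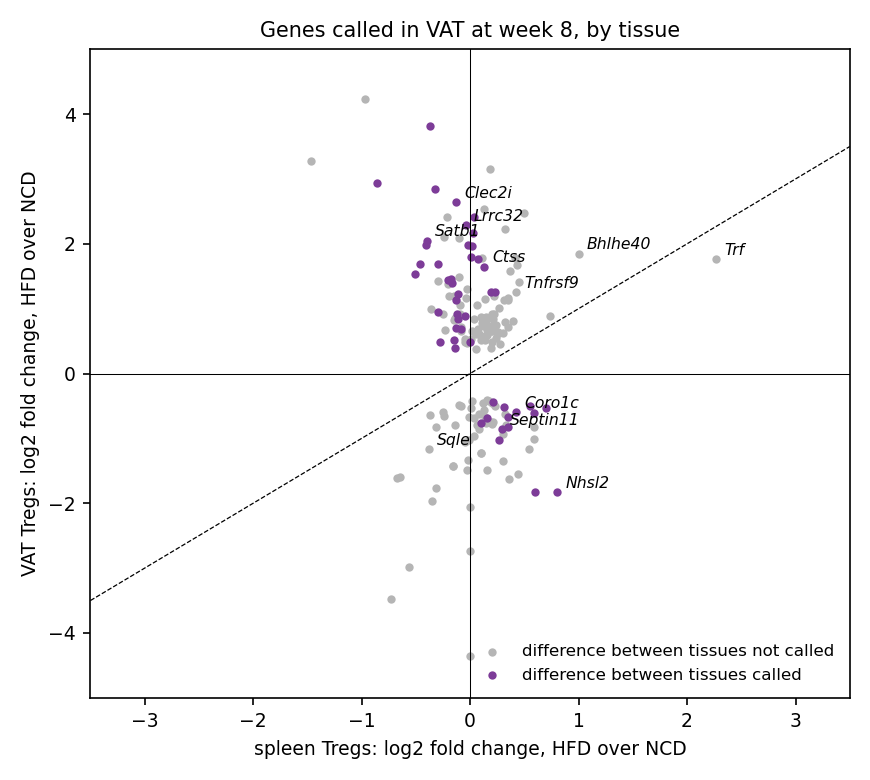
Log2 fold changes of HFD over NCD in spleen Tregs (x axis) and VAT Tregs (y axis) for 184 of the 189 genes called in VAT, with 5 genes outside the axes; purple marks genes whose diet effect differed between tissues and the dashed line marks equal effects. Ctss, Lrrc32, Satb1 and Clec2i lie near 0 in spleen and high in VAT, while Trf lies high in both.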

How the data were processed

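RNA of 1000 sorted Tregs per library was copied by oligo(dT) priming, amplified over 18 PCR cycles, tagmented and read as paired ends of 38 bases, per the labels' protocols. The deposited values are raw read counts per gene, made with STAR 2.7.3a and featureCounts on mm10, per the submitters' processing notes; the annotation release, strand setting and treatment of reads with several matches were not given in the sources used here. Without molecular identifiers, floors cover counting error only. No column was left without a sample (0 of them).

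Counts were analysed with edgeR 4.0.16 in R 4.3.3: genes were filtered with filterByExpr by group, scaled by TMM, and fitted with 1 mean per group and robust quasi-likelihood over 25 VAT libraries (16 residual degrees of freedom). The tissue difference came from a joint fit of 51 VAT and spleen libraries. The threshold was a Benjamini-Hochberg adjusted p under 0.05 over all genes tested, and each ± beside a log2 fold change is a standard error, the absolute log2 fold change over the square root of the F statistic. VAT CPM are scaled in the VAT fit and spleen CPM in the joint fit. Alternatives were size factors in place of TMM, no filter, DESeq2 1.42.0, limma 3.58.1 with voom, only the groups compared, a replicate block, and each library left out. The procedure was tested on simulated data with 100 genes changed 2-fold and 100 changed 4-fold. The VAT contrast found 45 and 86 of them, with 6 false calls. The tissue difference found 27 and 65, with 7 false calls. A gene that was not called may thus still differ 2-fold. Some genes that the lists count are not reported here by name.

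The genes, gene lists and tests were chosen with earlier results of these data known. Named genes were the 15 rises and 15 falls with the smallest p (absolute log2 fold change of at least 0.585, mean log2 CPM of at least 3, no overlap; predicted genes and receptor segments left out), for each list its called members with the smallest p and its 2 members of smallest p, 21 genes always named, and the 5 leading tissue differences. Named outside this rule, after their values were seen, were Cd27, Traf1, Tank, Ikzf4, Swap70, Cd274, Ifnar1, Jak2, Sting1, Dpp4, Tbc1d4, Gramd1b, Iqgap1, Ncam1, Serpinb9, Cybb, Cmpk1, Myadm, Igkc, Rel, Nfkbia, Tigit, Lag3, Icos, Cyp51, H2-K1, H2-D1, Tcf7, Bach2, Cxcr5, Fos, Nr4a1, Nkg7, Cd8b1, Cd74, Ighm and Jchain. Positions are those of GENCODE M21 on mm10, matched by symbol for 13923 of 14164 tested genes; exons of 63 of 186 called genes overlap another gene, and their counts are uncertain. Promoters are from RefSeq, GRCm38.p6, found for 9735 of the tested genes (68.7%).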

Additional observations from a re-analysis of the deposited data

Results flagged for a closer look

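The diet effect differed between VAT and spleen, by the test of the difference itself, for 26 named genes; each value is the log2 effect in VAT minus that in spleen, by edgeR's quasi-likelihood test. Of these, 7 kept the call whichever of the 12 libraries was left out: Ctss (1.52), Ltb (0.96), Igf1r (2.00), Cd96 (1.80), Lrrc32 (2.34), St6gal1 (1.70) and Clec2i (2.77).

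The other 19 lost it when VAT NCD replicate 2 was left out; 17 of the 26 lost it without spleen HFD replicate 1 and 14 without spleen NCD replicate 1. Those with the higher effect in VAT were Adk (1.06), Btla (1.03), Izumo1r (0.93), Satb1 (2.47), Pecam1 (1.26), Cd27 (0.49), Ikzf4 (1.05), Dpp4 (1.95), Tbc1d4 (2.15) and Serpinb9 (1.36). Where the call was lost, these stood at 0.95 to 1.09 for Adk, 0.94 to 1.07 for Btla, 0.90 to 0.95 for Izumo1r, 2.20 to 2.51 for Satb1, 1.04 to 1.30 for Pecam1, 0.44 to 0.53 for Cd27, 0.78 to 1.08 for Ikzf4, 1.66 to 1.90 for Dpp4, 1.89 to 2.06 for Tbc1d4 and 1.17 to 1.37 for Serpinb9.

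Those with the lower effect in VAT were Nhsl2 (-2.62), Plec (-0.86), Septin11 (-1.13), Atp2b1 (-0.84), Coro1c (-1.01), Rfx1 (-1.17), Anxa5 (-0.82), Tagln2 (-1.01) and Ncr1 (-13.45, fitted from counts of 0 and no measure of size). Where the call was lost, they stood at -2.35 to -2.15 for Nhsl2, -0.80 to -0.78 for Plec, -1.02 to -0.98 for Septin11, -0.80 to -0.75 for Atp2b1, -1.0 to -0.93 for Coro1c, -0.80 to -0.69 for Anxa5 and -1.08 to -0.88 for Tagln2, and at -13.45 to -7.98 for Ncr1. Rfx1 lost its call whichever library was left out (-1.26 to -1.05).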

How the results depend on the processing

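Of the 189 calls in VAT, 118 higher and 71 lower, the number moved with single libraries, the filter on low counts and the tool. Without the filter 465 genes were called (238 higher, 227 lower), with DESeq2 411 (225 and 186), and voom called 107 lower genes; 170, 188 and 163 of the 189 genes were also called in these runs. With only the groups compared 163 genes were called, 107 of them among the 189. Leaving out 1 library at a time gave 37 to 248 calls, 28 to 133 of them higher and 8 to 115 lower. For the tissue difference, 71 calls became 386 without the filter (188 higher, 198 lower), 154 with DESeq2 (95 and 59) and 108 with only the groups compared (40 lower); leaving out 1 library gave 8 to 99, of which 8 to 67 were higher and 0 to 32 lower. The cause of these shifts was not tested. With the replicate block, 173 genes were called in VAT and 66 in the tissue difference. Libraries with the same number did not deviate together (correlations of -0.041, 0.025 and -0.066), nor did VAT and spleen libraries of the same diet and number (-0.193 to 0.027), so the numbers were not taken as pairs. Some VAT and spleen libraries of the same diet but different number had higher correlations, up to 0.216 (HFD, VAT replicate 1 with spleen replicate 3). Whether such libraries shared mice was not tested, and the joint fit took all libraries as independent. Under the block Bhlhe40 (adjusted p = 0.0648) and Klrk1 (0.0580) lost their calls. Without the filter Bhlhe40 (0.0552), Crip1 (0.0508) and Klrk1 (0.0877) lost theirs, and with size factors Tagln2 (0.0502). Voom did not call Dgat2 (0.0530), Ncr1 (0.0733), Klrk1 (0.0946) or Ncam1 (0.0586). With only the groups compared, Srebf2 (0.0507), Ftx (0.0723), Faf1 (0.0540), Dgat2 (0.0726) and Ifih1 (0.116) were not called. The same held for Plk3 (0.179), Anxa5 (0.0632), Ikzf4 (0.0540) and Iqgap1 (0.0547). No named gene reversed. Over 73 named genes that were called, leaving out 1 of 6 libraries kept the call in 267 values and lost it in 171; the 6 other settings kept it in 415 and lost it in 22. With 3 libraries per diet and 1000 cells each, depth limits genes near 0.492 to 0.695 CPM, where Ncr1 and Ncam1 lie with HFD.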
